A study of Caenorhabditis elegans with 42 samples.

Results

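The genes described here encode the core helicases and scaffolds of P granules, the RNA and protein condensates of the Caenorhabditis elegans germ line. They are glh-1, glh-2, glh-3, glh-4, pgl-1, pgl-2, pgl-3 and deps-1, which is 8 of the 30304 genes in the deposited tables, or 10 of 34873 transcript rows. They were chosen by name, in part because glh-4 was lower in adr-1 mutant embryos, so all their values in adr-1 embryos, the authors' deposited calls included, are given as description and support nothing.

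P granules lie over the nuclear pores of germ cells and are passed to the germline blastomeres as the early embryo divides. The GLH proteins are DEAD-box RNA helicases related to Vasa, and GLH-1 is the member most studied in the granule. PGL-1 and PGL-3 associate with themselves and with each other to form the body of the granule, PGL-2 is their relative, and DEPS-1 is needed for granule assembly and for the accumulation of GLH-1. The granules hold maternal RNA and many factors of the small RNA pathways that silence foreign and repeated sequences in the germ line.

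ADR-2 is the active adenosine deaminase of C. elegans, which turns adenosine into inosine in double-stranded RNA, and ADR-1 is a related RNA-binding protein without deaminase activity. Whole-animal RNA was sequenced from embryos and L4 larvae of the strains BB19, which carries adr-1(tm668), BB2, which carries adr-1(gv6), RB886, which carries adr-2(ok735), and BB3, which carries adr-2(gv42), and of N2, the wild type. The embryo groups held 3 BB19, 2 BB2, 3 RB886, 3 BB3 and 4 N2 libraries, and every L4 group held 3. RNA bound to FLAG-tagged ADR-1 came from young adults of HH76, which is adr-1(tm668) with a 3XFLAG-adr-1 transgene on the array blmEx1, and of HH134, which also carries adr-2(ok735), set against BB21, the untagged adr-1(tm668); adr-2(ok735) double mutant, with 2 pulled-down and 2 input libraries of each strain. Transgenes on such arrays are commonly silent in the worm germ line, and whether this one was active there was not tested.

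The deposited tables give 1 normalised mean count per strain and transcript, so no value per library, no SD and no depth per library can be given, and the sums of the means lay between 14175076 and 17398075. All 4 embryo comparisons share the same N2 libraries, as do all 4 L4 comparisons. The titles of the libraries carry dates, and no BB19 or BB2 embryo library shares one with an N2 embryo library, so date and strain cannot be told apart there. Of the 3 RB886 and 3 BB3 embryo libraries, 1 each shares a date with N2, and 2 RB886 libraries share a date with each other. In the authors' deposited tables the mutant strains kept part of the RNA of the mutated gene. The adr-1 fold was 0.242 in BB19 embryos, 0.170 in BB2 embryos and 0.309 in BB19 larvae, but 0.537 in the larvae labelled BB2, where adr-2 also stood at 0.638 of N2. The adr-2 fold was 0.063 and 0.0581 in RB886 and BB3 embryos, and 0.0819 and 0.0877 in RB886 and BB3 larvae.

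Across the strains glh-4 had the widest relative range of levels in embryos, followed by glh-2 and glh-1, and the remaining genes varied less. In embryos glh-4 lay far below N2 in both adr-1 strains and above it in RB886, while in larvae it was at the N2 level in both adr-1 strains and above it in both adr-2 strains. The PGL and deps-1 transcripts lay below N2 in adr-1 embryos, above it in RB886 embryos, and close to it in most larvae. In whole animals, fewer germ cells and less RNA per germ cell cannot be told apart. Levels below are normalised mean counts on a common scale, on which the N2 mean of a gene is the same in every comparison of a stage. A gene is called when the authors' deposited adjusted p is under 0.05. Intervals are 95% intervals of the log2 ratio that allow for counting error plus a spread of 20% between libraries, a value that was set and not measured.

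Among the helicases, glh-4 averaged 623 in BB19, 681 in BB2, 1631 in RB886 and 1030 in BB3 embryos, against 1190 in N2 embryos. It was thus low in both adr-1 strains and high in RB886, with BB3 somewhat under N2. The authors' deposited tables gave log2 fold changes of -0.94 in BB19 and -0.81 in BB2, with intervals of -1.37 to -0.49 and -1.31 to -0.32. These values are the ones that led to its choice. For RB886 embryos the authors' deposited table gave 0.45 with an adjusted p of 6.38e-55, and the interval ran between 0.02 and 0.89. For BB3 embryos the value in the authors' deposited table was -0.21 with an adjusted p of 0.00702, and the interval of -0.65 to 0.23 included 0. The adr-2 alleles therefore differed in sign in embryos, and BB3 stood at -0.66 relative to RB886 on the log2 scale (interval -1.13 to -0.20), a difference that was not called after adjustment over all genes (z test, adjusted p = 0.483).

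In L4 larvae glh-4 averaged 2150 in BB19, 2174 in BB2, 2677 in RB886 and 2662 in BB3, against 2120 in N2. Both adr-2 strains were high and nearly equal, and both adr-1 strains were at the N2 level. The authors' deposited tables gave log2 fold changes of 0.34 in RB886 (adjusted p = 4.57e-35) and 0.33 in BB3 (adjusted p = 1.2e-30). With the set spread the intervals were -0.13 to 0.80 and -0.14 to 0.79, and both included 0. Ranked by log2 ratio against every gene whose mean reached 100, glh-4 stood at percentile 95.6 in RB886 larvae and 96.1 in BB3 larvae. BB3 relative to RB886 stood at -0.01 in larvae (interval -0.47 to 0.46), and 2.77% of all genes differed between these larvae by the z test.

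The glh-1 transcript, which encodes the founding GLH helicase, averaged 388 in BB19, 402 in BB2, 735 in RB886 and 435 in BB3 embryos, against 573 in N2 embryos. RB886 alone was above N2, and BB3 was nearer to the adr-1 strains than to the other adr-2 allele. In the authors' deposited tables the log2 fold change was 0.36 in RB886 (adjusted p = 9.94e-15) and -0.40 in BB3 (adjusted p = 5.45e-10). The intervals, -0.08 to 0.80 in RB886 and -0.84 to 0.05 in BB3, each included 0, while that of BB3 relative to RB886 (-0.76, interval -1.23 to -0.28) did not. That allele difference was not called over all genes (z test, adjusted p = 0.223), and at this setting 0.259% of all genes were. In the same ranking glh-1 stood at percentile 96.9 in RB886 embryos and 0.680 in BB3 embryos. In adr-1 embryos the authors' deposited tables listed -0.56 for BB19 and -0.51 for BB2.

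In larvae glh-1 averaged 2080 in BB19, 2509 in BB2, 2626 in RB886 and 2449 in BB3, against 2280 in N2. BB19 was the one strain below N2. The authors' deposited tables gave -0.13 in BB19 (adjusted p = 1.77e-05), 0.14 in BB2 (adjusted p = 0.148), 0.20 in RB886 (adjusted p = 1.08e-11) and 0.11 in BB3 (adjusted p = 0.000483). Every one of these 4 intervals included 0.

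The close paralog glh-2 averaged 429 in BB19, 401 in BB2, 786 in RB886 and 614 in BB3 embryos, against 590 in N2 embryos. The authors' deposited tables gave log2 fold changes of -0.46 in BB19, -0.55 in BB2, 0.41 in RB886 (adjusted p = 1.72e-19) and 0.06 in BB3 (adjusted p = 0.238). In larvae glh-2 averaged 941 in BB19, 750 in BB2, 1012 in RB886 and 1016 in BB3, against 963 in N2. Only the BB2 larvae stood apart from N2, at -0.36 in the authors' deposited table (adjusted p = 1.83e-30), with an interval of -0.83 to 0.11. The sources used here do not say how reads matching both paralogs were counted, so the split between glh-1 and glh-2 is uncertain.

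The remaining helicase gene, glh-3, varied least among the GLH genes in embryos. It averaged 1070 in BB19, 1100 in BB2, 1364 in RB886 and 1240 in BB3 embryos, against 1140 in N2 embryos. The authors' deposited tables called it in both adr-2 strains, at 0.25 in RB886 (adjusted p = 3.27e-12) and 0.12 in BB3 (adjusted p = 0.014), and listed -0.10 in BB19 and -0.05 in BB2. In larvae glh-3 averaged 1330 in BB19, 1071 in BB2, 1215 in RB886 and 1372 in BB3, against 1300 in N2. The lowest larval value was again that of BB2, at -0.28 in the authors' deposited table (adjusted p = 6.46e-14).

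**Figure D1:**
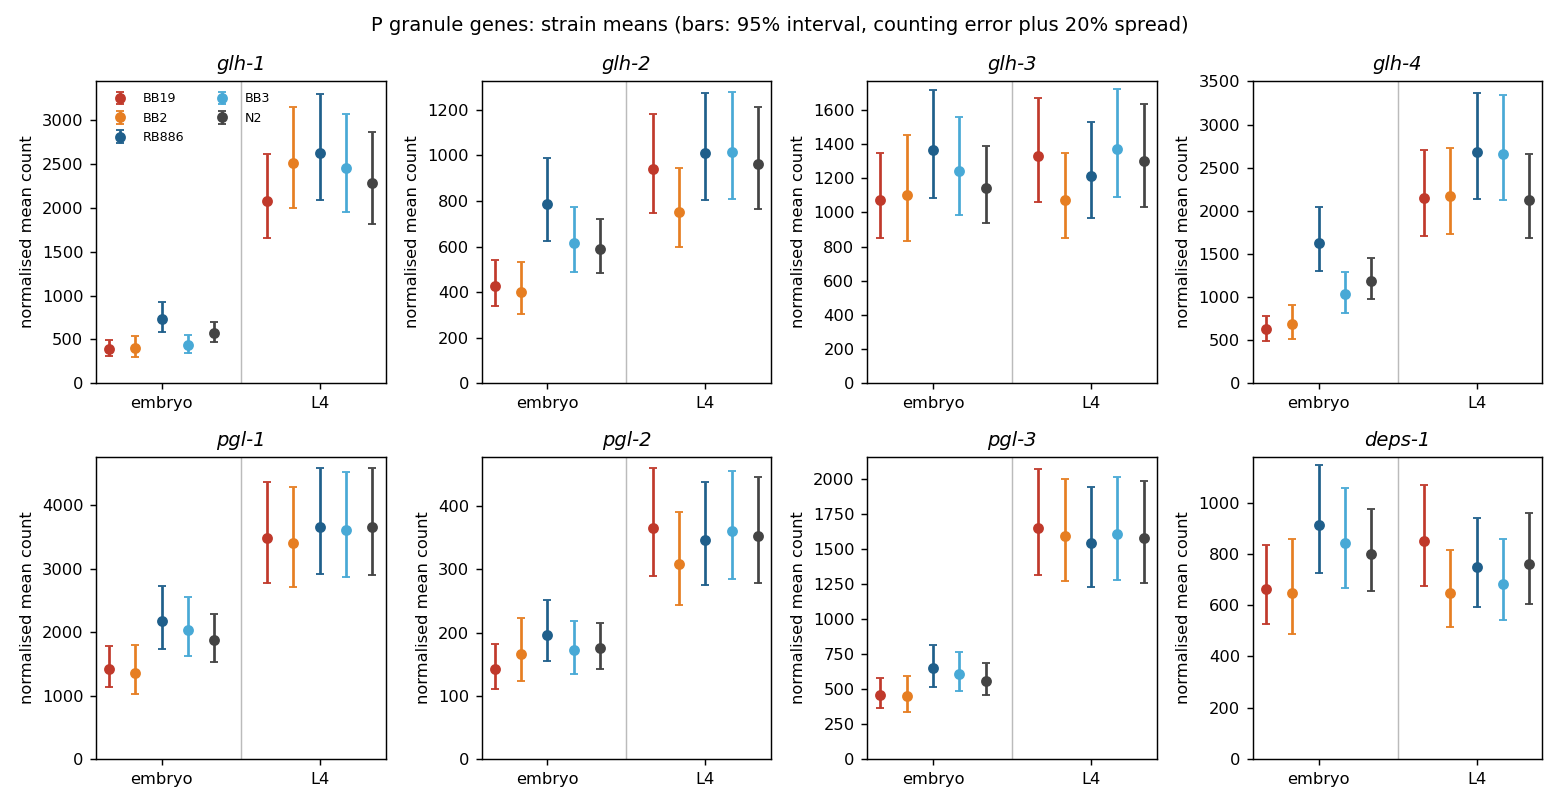
Normalised mean count of each of the 8 genes (y axis, linear from 0, common scale within a stage) in embryos and L4 larvae of BB19, BB2, RB886, BB3 and N2. Points are strain means and bars are 95% intervals for counting error plus a 20% spread between libraries. In embryos glh-4 lies at 623 and 681 in the adr-1 strains and 1631 in RB886, against 1190 in N2.

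The scaffold gene pgl-1 averaged 1420 in BB19, 1360 in BB2, 2175 in RB886 and 2030 in BB3 embryos, against 1870 in N2 embryos. The authors' deposited tables gave log2 fold changes of -0.40 in BB19, -0.46 in BB2, 0.22 in RB886 (adjusted p = 1.22e-14) and 0.12 in BB3 (adjusted p = 0.00497). Both adr-1 strains were thus low and both adr-2 strains a little high. In larvae pgl-1 averaged 3480 in BB19, 3412 in BB2, 3656 in RB886 and 3607 in BB3, against 3650 in N2, and all 4 mutant strains lay within 0.10 of N2 on the log2 scale. Its 2 annotated transcripts gave nearly the same fold changes: ZK381.4b stood at 0.501 to 0.507 of ZK381.4a in every group and their log2 fold changes differed by at most 0.003. The calls were not all the same. In the authors' deposited tables ZK381.4b was not called in BB3 embryos (adjusted p = 0.0837) or BB19 larvae (adjusted p = 0.0944), where ZK381.4a was.

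Its partner pgl-3 averaged 458 in BB19, 449 in BB2, 648 in RB886 and 607 in BB3 embryos, against 560 in N2 embryos. In the authors' deposited tables the log2 fold change was -0.29 in BB19, -0.32 in BB2, 0.21 in RB886 (adjusted p = 0.000307) and 0.12 in BB3 (adjusted p = 0.024). In larvae it averaged 1650 in BB19, 1595 in BB2, 1545 in RB886 and 1606 in BB3, against 1580 in N2. No larval strain was called for pgl-3, and the smallest adjusted p of the authors' deposited tables was 0.0598, in BB19. The pgl-3 transcript C18G1.4b stood at 0.903 to 0.913 of C18G1.4a in the mutant groups, with log2 fold changes at most 0.017 apart. In BB3 embryos C18G1.4b was not called in the authors' deposited table (adjusted p = 0.051), while C18G1.4a was.

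The relative pgl-2 had the lowest counts and so the widest intervals. It averaged 166 in BB2, 197 in RB886 and 172 in BB3 embryos, against 175 in N2 embryos. In BB19 embryos the authors' deposited table put it at 0.809 of N2. For the adr-2 embryos the authors' deposited tables gave adjusted p values of 0.284 in RB886 and 1 in BB3. In larvae it averaged 365 in BB19, 309 in BB2, 347 in RB886 and 361 in BB3, against 353 in N2. The BB2 larvae were the only ones called, at -0.20 in the authors' deposited table (adjusted p = 0.0218).

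The assembly factor gene deps-1 averaged 662 in BB19, 646 in BB2, 912 in RB886 and 842 in BB3 embryos, against 800 in N2 embryos. The authors' deposited tables gave -0.27 in BB19, -0.31 in BB2, 0.19 in RB886 (adjusted p = 0.000121) and 0.07 in BB3 (adjusted p = 0.198). In larvae deps-1 averaged 849 in BB19, 649 in BB2, 748 in RB886 and 682 in BB3, against 763 in N2. Larvae of the adr-1 alleles lay on opposite sides of N2, at 0.15 in BB19 (adjusted p = 0.00114) and -0.23 in BB2 (adjusted p = 1.1e-06) in the authors' deposited tables. BB3 larvae were also called lower in the authors' deposited table, at -0.16 (adjusted p = 0.000724).

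Between the stages the N2 means of all genes but deps-1 were higher in larvae, with embryo and larval tables scaled separately and the ratio not tested. The N2 ratio of larvae to embryos was 3.98 for glh-1, 2.82 for pgl-3, 2.02 for pgl-2, 1.95 for pgl-1, 1.78 for glh-4, 1.63 for glh-2, 1.14 for glh-3 and 0.954 for deps-1. Levels of different genes are not compared, as the tables carry no transcript length.

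**Figure D2:**
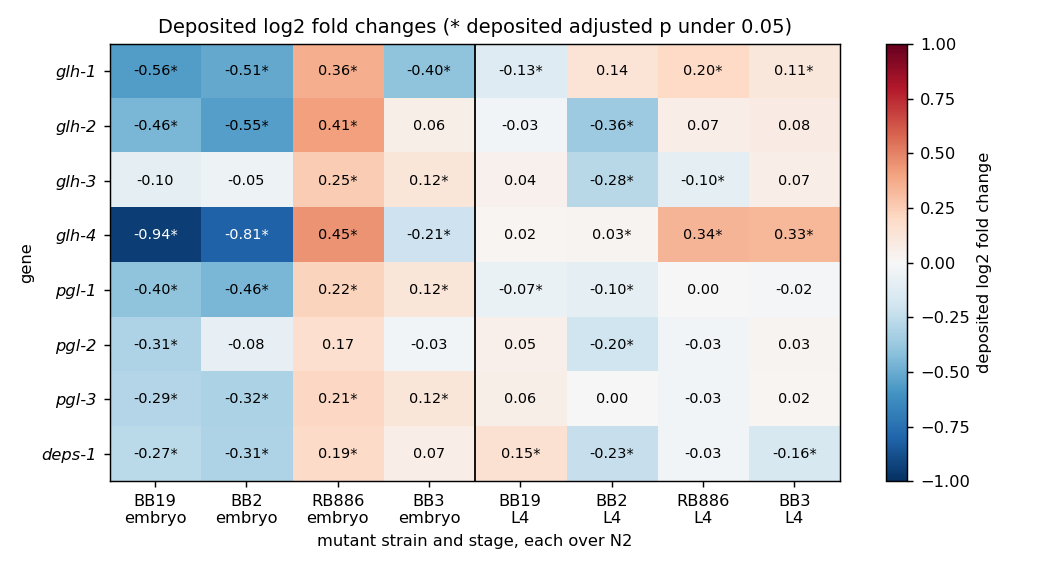
Deposited log2 fold change over N2 (colour and number) of the 8 genes (rows) in the 8 strain and stage comparisons (columns), with a star where the deposited adjusted p is under 0.05. The glh-4 row runs between -0.94 in BB19 embryos and 0.45 in RB886 embryos.

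Counted over the 8 genes, RB886 embryos had 7 called higher and 0 lower, where 9.26% of all genes tested were called higher, 8.93% lower and 18.2% in either direction. The gene not called was pgl-2. All genes tested numbered 27048 here, whereas 10080 genes had a mean of at least 100, as each of the 8 had. The share called among genes with such counts was not computed, here or for the comparisons below. It can differ from the share over all genes. The median log2 ratio of the 8 was 0.24, against 0.017 over all genes tested. In BB3 embryos 3 were called higher (glh-3, pgl-1 and pgl-3) and 2 lower (glh-1 and glh-4), where 10.4% of all genes were called higher, 5.83% lower and 16.2% in either direction. The median of the 8 was 0.06 in BB3 embryos, against 0.043 over all genes. The BB3 embryo calls of pgl-1 and pgl-3 did not hold for their transcripts ZK381.4b and C18G1.4b.

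In RB886 larvae glh-1 and glh-4 were called higher and glh-3 lower, which is 3 of 8 where 17.5% of all genes were called, 9.42% higher and 8.06% lower. In BB3 larvae glh-1 and glh-4 were again called higher and deps-1 lower, 3 of 8 where 16.9% of all genes were called, 8.50% higher and 8.39% lower. Medians of the 8 were -0.02 in RB886 larvae and 0.06 in BB3 larvae, against 0 over all genes in each. Apart from glh-1 and glh-4, the largest deviation in adr-2 larvae was that of deps-1 in BB3.

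In BB19 larvae 3 of 8 were called, deps-1 higher and glh-1 and pgl-1 lower. The pgl-1 call there did not hold for its transcript ZK381.4b. Over all genes, of any level, 32.3% were called, 17.3% higher and 15% lower, a share near that of the 8. In BB2 larvae 6 of 8 were called, glh-4 higher and glh-2, glh-3, pgl-1, pgl-2 and deps-1 lower, where 34.6% of all genes were called, 16.2% higher and 18.4% lower. None of the 8 passed the direct z test between these adr-1 alleles in larvae, which 5.77% of all genes passed. The medians were 0.02 in BB19 and -0.15 in BB2, against 0.013 and -0.023 over all genes. In adr-1 embryos the counts are part of how the set was chosen. They were 0 higher and 7 lower in BB19, where 30% of all genes were called, 13.2% higher and 16.8% lower. They were 0 higher and 6 lower in BB2, where 35.4% of all genes were called, 18.7% higher and 16.7% lower. Medians there were -0.35 and -0.39, against -0.016 and 0.045 over all genes.

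These calls depend on how much libraries of a strain are taken to vary. With a spread of 20%, 0 of the 8 were called in the 6 comparisons that did not enter their choice. The share of all genes called at that spread was 0.312% in RB886 and 0.858% in BB3 embryos, and 7.38% in BB19, 7.60% in BB2, 2.48% in RB886 and 2.38% in BB3 larvae. In adr-1 embryos, where the choice of glh-4 settles its own call, 4.94% of all genes passed in BB19 and 8.95% in BB2, and no test of the 8 is given. Over genes whose mean reached 100, the alleles of one gene differed as much as a library spread of 10.2% would give for adr-1 embryos, 11.2% for adr-2 embryos, 20.0% for adr-1 larvae and 12.1% for adr-2 larvae.

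Most deposited p values of these genes lay close to those that counting error alone gives, and the widest gap in z value was that of glh-4 in BB2 larvae. There glh-4 had a deposited adjusted p of 1.93e-27 in the authors' deposited table with a log2 fold change of 0.03. The z value behind that p was 11.13, against 1.4 for counting error, so its call does not follow from its 2 means. The next widest gaps were those of glh-4 in BB19 embryos (-29.3 against -23.7), pgl-1 in BB2 larvae (-9.70 against -4.57), glh-4 in BB2 embryos (-23.33 against -18.67) and glh-1 in BB2 larvae (1.86 against 5.55). A gap over 5 between the z values occurred in 0.449% of genes whose mean reached 100 in BB19 embryos and 0.981% in BB2 larvae.

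**Figure D3:**
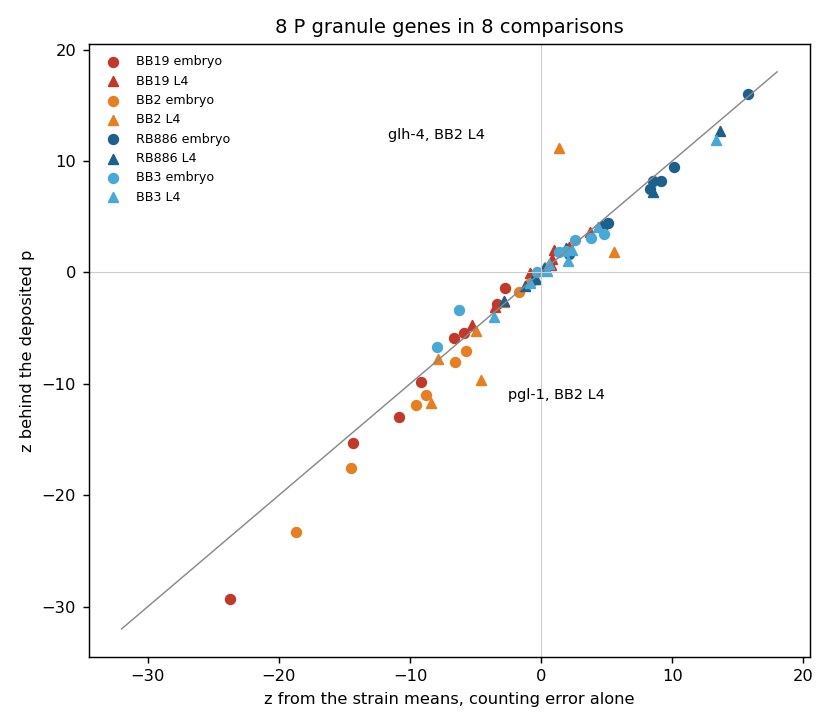
For each of the 8 genes in each comparison, the z value behind the deposited p (y axis) against the z value from the strain means with counting error alone (x axis). The line marks equal values; glh-4 in BB2 larvae lies at 11.13 against 1.4, away from the line.

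The alleles of each gene were also set against each other across genotypes in larvae, with the strain as the replicate. No gene of 16619 was called between the adr-1 and adr-2 strains after Benjamini-Hochberg adjustment in limma's moderated test on log2(mean + 1), a share of 0%. An unadjusted p under 0.05 was found for 1665 genes. Of the 8 genes, glh-4 alone was among these, with 2160 in adr-1 larvae and 2670 in adr-2 larvae, a log2 difference of -0.30 (interval -0.58 to -0.03, limma adjusted p = 0.471). The intervals of the other 7 all included 0. Even the mutated gene adr-2 was not called, at 1310 in BB19 and 801 in BB2 larvae, against 103 in RB886 and 110 in BB3. With so few strains the lack of calls therefore does not show that genes are equal. In embryos the same fit, given as description, placed glh-4 at 652 in adr-1 strains and 1330 in adr-2 strains.

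Whether the adr-2 effect differed between stages was tested on the difference of the log2 ratios. None of the 8 genes was called in RB886, where 1.13% of all genes were, or in BB3, where 1.53% were. In BB3 the larval ratio of glh-4 exceeded the embryonic one by 0.53 (interval -0.10 to 1.17, z test adjusted p = 0.94) and that of glh-1 by 0.50 (interval -0.14 to 1.14, adjusted p = 1). The intervals of all 8 genes included 0 in both strains.

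**Figure D4:**
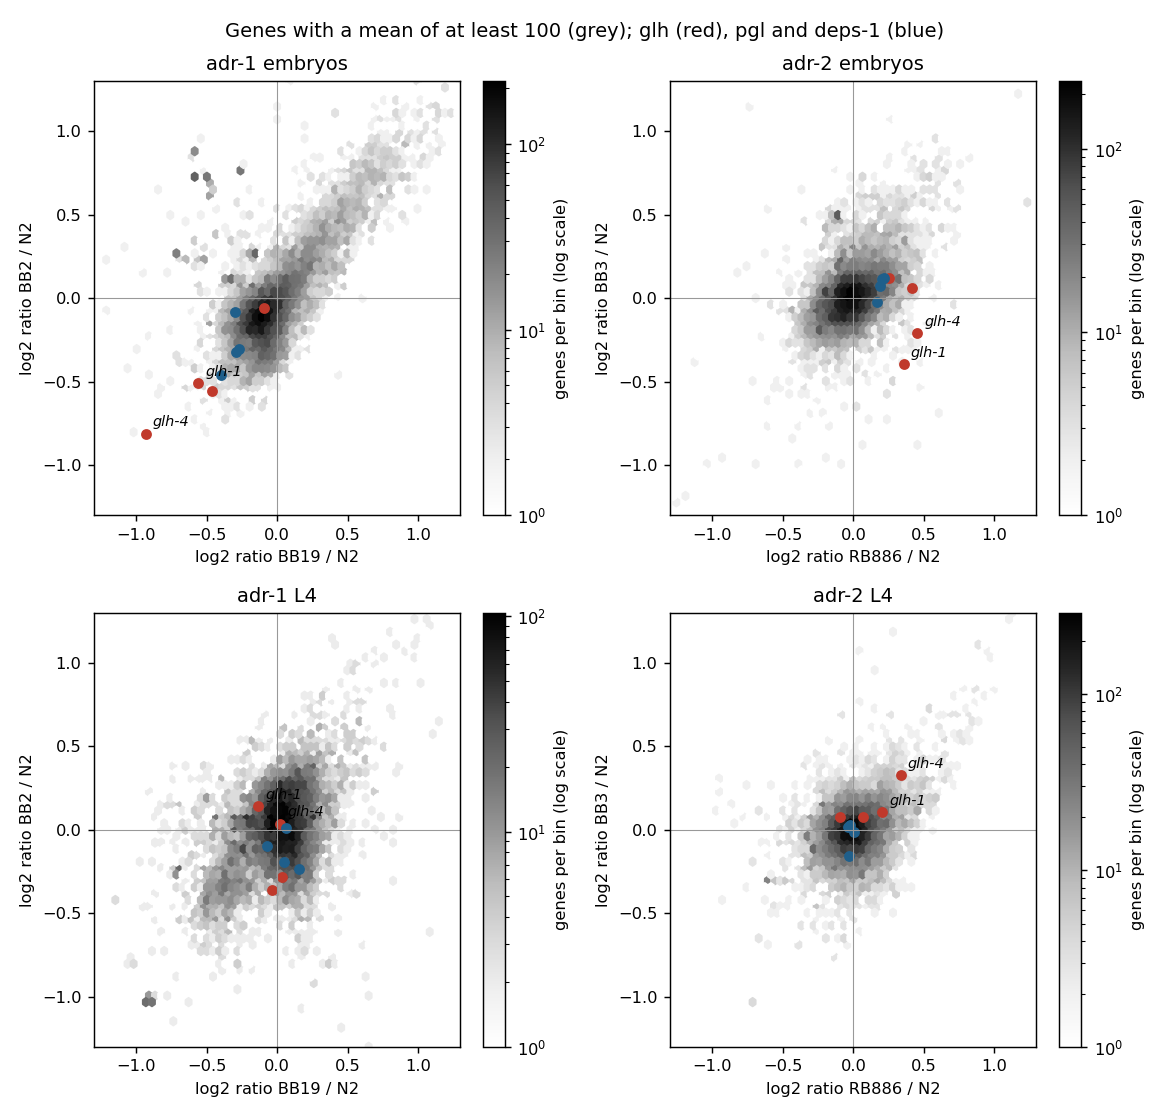
Log2 ratio to N2 of 1 allele (x axis) against the other allele of the same gene (y axis) for genes with a mean of at least 100 (grey, bins of gene number on a log scale), with the GLH genes in red and the PGL genes and deps-1 in blue. In adr-2 embryos glh-1 (0.36 and -0.40) and glh-4 (0.45 and -0.21) lie at the lower right; in adr-2 larvae glh-4 lies at 0.34 and 0.33. The axes share N2 libraries, so no correlation is given.

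Over the 8 log2 ratios, the gene of 11200 whose pattern was closest to glh-4 was T08D2.3, which the WBcel235 annotation lists as a pseudogene on chromosome X, while glh-4 is on chromosome I. In each table's own scale T08D2.3 averaged 203 in BB19, 227 in BB2, 534 in RB886 and 338 in BB3 embryos, against 376 in N2 embryos. It averaged 672 in BB19, 608 in BB2, 833 in RB886 and 841 in BB3 larvae, against 693 in N2 larvae. In all 10 groups it stood between 31.2% and 32.8% of glh-4. The root mean square difference of the log2 ratios was 0.0457, smaller than the 0.0639 that counting error would give for independent reads. Whether both rows count some of the same reads was not tested, a point that touches every glh-4 value above.

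Next to glh-4 came dpf-5, which encodes a dipeptidyl peptidase family member (0.125), and tut-1, which encodes a tRNA thiolation enzyme (0.16). For glh-1 the closest genes were tin-9.2 (0.126), R05H10.2 (0.128) and exos-4.1 (0.129), and tin-9.2 and exos-4.1 carry the same sequence name in the tables. For pgl-1 they were plk-2, a Polo-like kinase gene (0.0775), hrde-1, a nuclear Argonaute gene that the tables list by its sequence name (0.0827), and mdt-17, a Mediator subunit gene (0.0827). Among the 8 genes themselves, pgl-3 was the fifth closest of all genes to pgl-1 (rank 5, 0.0883) and glh-1 the ninth closest to glh-4 (rank 9, 0.216), whereas glh-3 ranked 3788 from glh-4. Ranks differ by direction, and glh-4 ranked 71 from glh-1. All these ranks include the adr-1 embryo ratios that led to the choice of glh-4, and the ratios of a stage share N2 libraries. They are given as description.

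Other genes of the germ granules and germ line were followed in lists, with the counts of each comparison given side by side, since the alleles share their N2 libraries. In adr-1 embryos most genes called in the germ granule lists lay below N2, which is given as description. Over all genes 13.2% were called higher and 16.8% lower in BB19 embryos, and 18.7% higher and 16.7% lower in BB2 embryos. Of 12 genes of P granule assembly, 0 were called higher and 8 lower in BB19, and 0 higher and 11 lower in BB2. Examples are meg-2 (238 in BB19, 229 in BB2, 304 in N2) and meg-3 (2290 in BB19, 2219 in BB2, 2750 in N2), which encode disordered proteins that act in placing the granules at the posterior of the zygote. Of 15 small RNA factors found, 1 was called higher and 12 lower in BB19, and 1 higher and 10 lower in BB2. The gene simr-1, a factor of small RNA amplification, was above N2, with log2 fold changes of 0.46 in BB19 and 0.61 in BB2 in the authors' deposited tables.

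Of 17 germ plasm RNA regulators, 10 were called lower in BB19 embryos and 13 in BB2 embryos, and 0 higher in either. The shares of all genes called lower were 16.8% and 16.7%, and those called higher 13.2% and 18.7%. Among them were the zinc finger genes mex-1 (-0.40 and -0.60 in the authors' deposited tables) and oma-2 (-0.40 and -0.41 in the authors' deposited tables). Of 4 genes linked to GLH proteins or DEPS-1, here named partners, 3 were called lower in each adr-1 strain and 1 higher in BB2. Those lower include csn-5 (848 in BB19, 847 in BB2, 960 in N2) and rde-4 (857 in BB19, 839 in BB2, 930 in N2). Of 6 other germline helicase genes, 5 were called lower in each strain, with drh-3 at -0.13 and -0.18 in the authors' deposited tables.

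Neuron, muscle and intestine markers were mostly called higher in adr-1 embryos, and epidermis markers mostly lower. These counts stand beside 13.2% of all genes called higher and 16.8% lower in BB19, and 18.7% higher and 16.7% lower in BB2. Called higher were 9 of 11 neuron markers in BB19 and 8 in BB2, 9 of 9 muscle markers in BB19 and 8 in BB2, and 6 of 9 intestine markers in each. Examples are egl-21, a neuropeptide-processing gene (1060 in BB19, 1090 in BB2, 630 in N2), snt-1, the synaptotagmin gene (404 in BB19, 408 in BB2, 242 in N2), myo-1, a pharyngeal myosin gene listed as let-75 (7030 in BB19, 5730 in BB2, 3890 in N2), and asp-5, an intestinal protease gene (1030 in BB19, 941 in BB2, 574 in N2). A further myosin gene, myo-2, averaged 3370 in BB19 and 2778 in BB2, against 2000 in N2, and the protease gene asp-6 averaged 1610 in BB19 and 1418 in BB2, against 967 in N2. Called lower were 0 neuron markers in BB19 and 1 in BB2, 0 muscle markers in each, and 1 intestine marker in BB19 and 2 in BB2. The intestine marker ges-1 was called lower in both (511 in BB19, 505 in BB2, 568 in N2). Of 6 epidermis markers, 1 was called higher and 3 lower in BB19, and 0 higher and 6 lower in BB2, with medians of -0.24 and -0.42. The collagen gene sqt-1 averaged 42.0 in BB19 and 58.7 in BB2, against 107 in N2. Summed over the list, muscle markers stood at 90840 in BB19 and 76786 in BB2, against 65240 and 65210 in N2. Neuron markers summed to 9965 in BB19 and 9626 in BB2, against 7624 and 7627 in N2. Oocyte markers summed to 11677 in BB19 and 12199 in BB2, against 15030 and 15034 in N2, with 8 of 10 called lower in BB19 and 6 in BB2, such as the eggshell genes cbd-1 and cpg-2. Of 12 meiosis markers 6 were called lower in BB19 and 4 in BB2, such as the synapsis genes htp-3 (608 in BB19, 581 in BB2, 727 in N2) and syp-3 (152 in BB19, 164 in BB2, 194 in N2). Of 8 sperm markers, 0 were called in BB19 and 2 lower in BB2, the latter near the share of all genes called lower. No marker was at 0 in both groups of a comparison. The part of these differences in the P granule values was not tested.

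In adr-2 embryos several germ line lists had more genes called higher than lower. Over all genes 9.26% were called higher and 8.93% lower in RB886, and 10.4% higher and 5.83% lower in BB3. In the shortest lists a count of 1 lies near these shares. Called higher in RB886 were 9 of 15 small RNA factors, 13 of 17 germ plasm regulators, 9 of 10 oocyte markers and 7 of 12 meiosis markers, and 0 of these lists were called lower. In BB3 the counts were 9 of 15, 11 of 17, 4 of 10 and 3 of 12 called higher, and again 0 lower. The assembly genes were mixed in RB886, with 6 of 12 called higher and 4 lower, against 5 higher and 0 lower in BB3. Counts in the other germ line lists and the partner list follow. Of the 4 partners 1 was called higher in RB886 and 0 in BB3, of 6 other helicase genes 2 were called higher and 1 lower in RB886 and 3 higher and 0 lower in BB3, and of 8 sperm markers 0 higher and 1 lower in RB886 and 0 in BB3. Examples are wago-4, an Argonaute gene (618 in RB886, 651 in BB3, 492 in N2), and the helicase gene mut-14 (801 in RB886, 838 in BB3, 721 in N2). Oocyte markers summed to 17263 in RB886 and 15596 in BB3, against 15017 and 15028 in N2. Their median log2 ratio was 0.31 in RB886, where the P granule genes had 0.24, and 0.03 in BB3, where they had 0.06 and all genes 0.043. Muscle markers summed to 65201 in RB886 and 82930 in BB3, against 65229 and 65230 in N2. They were called higher for 3 of 9 and lower for 4 in RB886, and higher for 8 and lower for 0 in BB3, with a BB3 median of 0.23. Neuron markers were called higher for 5 of 11 and lower for 1 in RB886, and higher for 6 and lower for 0 in BB3. For 9 intestine markers the counts were 1 higher and 5 lower in RB886, and 5 higher and 2 lower in BB3. Of 6 epidermis markers, 0 were called higher and 3 lower in each strain. The part of these lists in the P granule values was not tested.

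In adr-1 larvae the germ plasm, assembly and oocyte lists were called in opposite directions in the alleles, and the sperm list in the same direction. Germ plasm regulators were called higher for 14 of 17 in BB19 and lower for 15 of 17 in BB2, and assembly genes higher for 9 of 12 in BB19 and lower for 8 of 12 in BB2. Oocyte markers were called higher for 8 of 10 in BB19 and lower for 10 of 10 in BB2, with sums of 26779 and 18352, against 24848 and 24844 in N2. Epidermis markers summed to 21200 in BB19 and 35617 in BB2, against 21532 and 21529 in N2, and the cuticle collagen gene dpy-7 averaged 1900 in BB19 and 2632 in BB2, against 932 in N2. Sperm markers were called lower for 7 of 8 in BB19 and 6 of 8 in BB2, such as spe-11 (612 in BB19, 669 in BB2, 856 in N2) and msp-142 (396 in BB19, 388 in BB2, 507 in N2). Other germline helicase genes were called higher for 2 of 6 and lower for 0 in BB19, and higher for 2 and lower for 1 in BB2, with medians of 0.03 and 0.04. For 15 small RNA factors the counts were 5 higher and 0 lower in BB19, and 1 higher and 6 lower in BB2. For 12 meiosis markers they were 1 higher and 1 lower in BB19, and 0 higher and 7 lower in BB2. Muscle markers were called higher for 3 of 9 and lower for 4 in BB19, and higher for 8 and lower for 0 in BB2. Intestine markers were called higher for 4 of 9 and lower for 3 in BB19, and higher for 9 and lower for 0 in BB2. Of 11 neuron markers, 2 were called higher and 2 lower in BB19, and 4 higher and 0 lower in BB2. The BB2 larvae are also those with 5 P granule genes called lower, and the part of these lists in that was not tested.

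In adr-2 larvae the counts stand beside 17.5% of all genes called in RB886 and 16.9% in BB3. Of 17 germ plasm regulators, 0 were called in RB886 and 13 lower in BB3. Small RNA factors were called lower for 0 of 15 in RB886 and 4 of 15 in BB3, and assembly genes higher for 1 of 12 and lower for 0 in RB886, and higher for 3 and lower for 4 in BB3. Oocyte markers were called higher for 0 of 10 and lower for 3 in RB886, and higher for 1 and lower for 5 in BB3, and summed to 24235 in RB886 and 24468 in BB3, against 24830 in N2 for each. The glh-4 log2 ratio, 0.34 in RB886 and 0.33 in BB3, stands beside oocyte medians of -0.08 and -0.02. Epidermis markers had a median of 0.43 in RB886 and 0.03 in BB3. The part of these lists in the glh-4 values, whose intervals included 0 in both strains, was not tested.

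**Figure D5:**
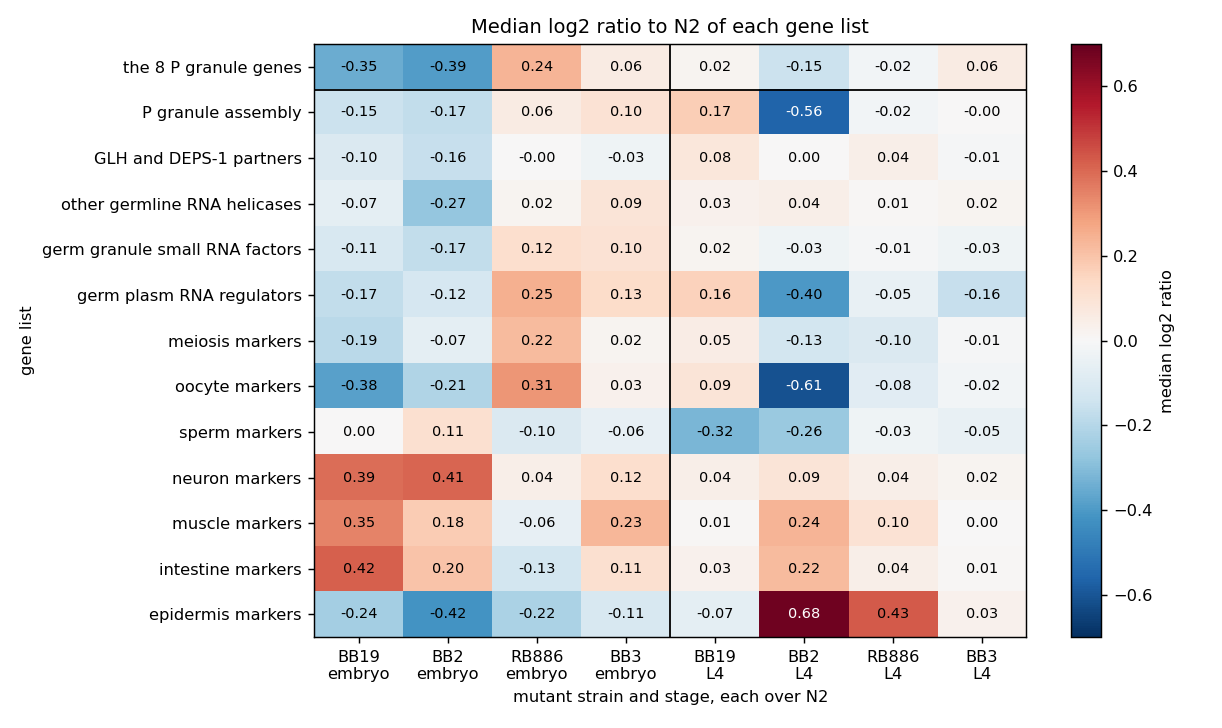
Median log2 ratio to N2 (colour and number) of the 8 P granule genes (top row) and of 12 other gene lists (rows below) in the 8 comparisons (columns). In adr-1 embryos the P granule row holds -0.35 and -0.39, and the neuron row 0.39 and 0.41; in BB2 larvae the oocyte row holds -0.61.

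Among RNAs bound by ADR-1, 0 of the 8 genes appeared in the 1237 genes listed for HH76 or the 1215 listed for HH134 in the authors' deposited tables, which hold bound genes alone. Genes of the P granule assembly, small RNA and germ plasm lists were likewise absent, 0 of 12, 0 of 15 and 0 of 17 in each strain. Beside the 30304 genes of the expression data, 1237 and 1215 are a small share. Counts of 0 in sets this small lie near that share, so they are no result about these genes. Of the partners, kgb-1, a kinase gene whose product binds GLH proteins, was listed in both strains. For comparison, 6 of 9 muscle markers and 1 of 9 intestine markers were listed in both strains. Of 11 neuron markers, 2 were listed in HH76 and 3 in HH134. The gene chs-1, a chitin synthase gene active in oocytes, was the 1 oocyte marker, in HH134. Epidermis, sperm and meiosis markers and the other helicase genes were not listed. As the tables hold no unbound genes, how much RNA of the 8 genes was pulled down is not known. None of the 8 was in the authors' deposited summary lists of genes changed in adr-1 or adr-2 embryos or larvae, glh-4 included, and the sources used here do not give the rule behind those lists. Each of those lists held between 7 and 374 genes. A count of 0 of 8 lies near that share of 30304 genes, so it is no result about these genes.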

How the data were processed

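The members and gene lists were chosen with earlier results of these data known. Per the submitters' processing notes, Bowtie, DESeq and the build ce10 were used, with no version or role. Per the file headers, the authors' expression signal is a normalised mean count per strain and transcript, scaled in each table. The deposited fold is the authors' ratio of a mutant mean to the N2 mean, and the deposited p-value and adjusted p are the authors' own. The tables of bound RNA hold the authors' log2 fold change, and a standard error and statistic as the authors' score columns.

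The transcript row with the largest sum of means stood for a gene. Means were rescaled so that N2 means coincide within a stage. Two-sided z tests used counting error plus a library spread of 20%, over genes with a mean of at least 10, with Benjamini-Hochberg adjustment. Library numbers came from the labels, which number biological replicates. The titles also carry dates, some shared between strains, and 1 L4 library of each strain shares a further tag, but no label says what these mark, and with group means no value within a date could be computed. The test between alleles was added after the data were seen. Strain means at L4 were fitted with limma 3.58.1 (R 4.3.3) with a pseudocount of 1, and other values came from Python 3.11.15. Both tests were tested on simulated data. The plan to give levels per length was dropped, as no transcript length was used here. Named are every member, the 2 genes of each list with the largest change shared by both alleles, and the 3 genes closest in pattern to glh-4, glh-1 and pgl-1. Of 120 list genes, 119 were found, and cde-1 was not. Gene names and chromosomes came from RefSeq's WBcel235 table, and no sequence is shown.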

Additional observations from a re-analysis of the deposited data

How the results depend on the processing

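Calls of the 8 genes depended on the spread allowed between libraries, on which the tables carry no value. With a spread of 20%, whether transcripts were summed or not, and likewise with the deposited adjusted p and at least a 1.5-fold change, 0 were called in the 6 comparisons outside adr-1 embryos. In BB19 and BB2 embryos the count was 1 each, which is glh-4, whose values there chose the set, so it shows no stability. With a spread of 10%, 4 were called in BB19 embryos, 4 in BB2 embryos, 2 in RB886 embryos, 1 in BB3 embryos, 1 in BB2 larvae and 0 in BB19, RB886 and BB3 larvae. At an adjusted p under 0.01, 3 remained called in BB3 embryos. At 10% the stage difference was called for 2 of the 8 in BB3 (glh-1 and glh-4), and the allele difference for 2 in adr-2 embryos and 2 in adr-1 larvae. With a pseudocount of 0.1, limma called 1 gene in larvae. Leaving out each strain in turn gave 0 calls (range 0 to 0), which with 1 strain left in an arm says nothing about stability. Among called values none reversed its direction in the alternatives run. In the limma fit none of the 8 was called, so a change of sign there was not counted. For deps-1 in larvae, BB19 (849) lay above both adr-2 strains (748 in RB886, 682 in BB3) and BB2 (649) below both. Its sign therefore depends on which adr-1 strain is left out. Medians of the sperm list in BB2 and RB886 embryos moved with the pseudocount, to 0.22 at 0.1 and 0.02 at 10 in BB2 and to -0.02 at 10 in RB886. Summing transcripts moved the neuron medians in BB2 embryos to 0.36 and in BB3 larvae to 0, and the assembly median in RB886 larvae to -0.01. No paired analysis was possible because the deposited columns are group means that carry no replicate.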
